A study of Rattus norvegicus with 9 samples.

Results

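The transcripts of 5 NF-κB subunits (Rela, Relb, Rel, Nfkb1 and Nfkb2) were followed in RNA-seq libraries of neural stem cells (NSCs). So were those of 5 genes grouped here as inhibitors (Nfkbia, Nfkbib, Nfkbie, Nfkbiz and Tnfaip3). These 10 genes were taken by symbol from a table of 23953 genes. The NSCs are labelled as rat cells from spinal cord, and the study's methods describe second-generation cells of neonatal rats kept in differentiation medium with serum, B-27, N-2 and FGF. The Con group had this medium alone. The Exo group had exosomes of bone marrow mesenchymal stem cells (BMSC-Exos), which the methods describe as coming from BMSCs with an empty lentiviral vector, and the pLV-Exo-Wnt5a group had exosomes of BMSCs that overexpressed Wnt5a from a lentivirus. Each group had 3 libraries. The sources used here do not say whether these are separate cultures, so p-values measure the spread between these libraries, which may be technical.

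NF-κB is a family of dimeric transcription factors. In resting cells IκB proteins hold the dimers in the cytoplasm, and signals such as TNF or interleukin-1 lead the IκB kinase complex to mark IκB for destruction, after which the dimers enter the nucleus. Several of the genes that NF-κB switches on encode its own inhibitors, among them Nfkbia and Tnfaip3, which gives the pathway a negative feedback. In nervous tissue the pathway is best known from inflammatory responses of glia. Transcript levels of its parts do not measure its activity, which is set largely by protein modification and location.

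Because several subunit and inhibitor genes carry binding sites for their own family, the promoters of the members were read from rat RefSeq (assembly GRCr8), over 250 bases before and 50 bases after the start site that the table gives. A promoter was in the table for 9 of the 10 members, and Relb had no entry. The κB consensus, searched on both strands with overlapping matches allowed, was found in 7 of these 9 promoters (77.8%), against 7.51% of all 33469 promoters. The windows of Rela and Nfkbib held no match. Shown are the 60 bases around the match in 3 members whose levels are described in full below. Those of Nfkb1, whose level hardly differed between groups, are also shown. Capitals mark the letters of the consensus, and each sequence reads 5′ to 3′ on the strand of its gene.
Nfkbia (chr6:78597069-78597128, minus strand): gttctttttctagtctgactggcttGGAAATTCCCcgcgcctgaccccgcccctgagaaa
Nfkbiz (chr11:58251683-58251742, plus strand): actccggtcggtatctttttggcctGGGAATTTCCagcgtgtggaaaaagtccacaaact
Nfkb2 (chr1:255108329-255108388, plus strand): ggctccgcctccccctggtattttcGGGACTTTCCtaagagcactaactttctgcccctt
Nfkb1 (chr2:226805438-226805497, minus strand): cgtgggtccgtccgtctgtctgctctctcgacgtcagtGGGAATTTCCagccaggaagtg
The match began 31 bases before the start site in Nfkbia, where the consensus lies on the opposite strand, 13 before it in Nfkbiz and 20 before it in Nfkb2. Nfkbiz and Nfkb1 carry the same 10 letters, and the Nfkbia match reads as these letters on its opposite strand. Whether these letters bear on the levels was not tested. A match describes letters only and was not tested as a binding site.

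**Figure D1:**
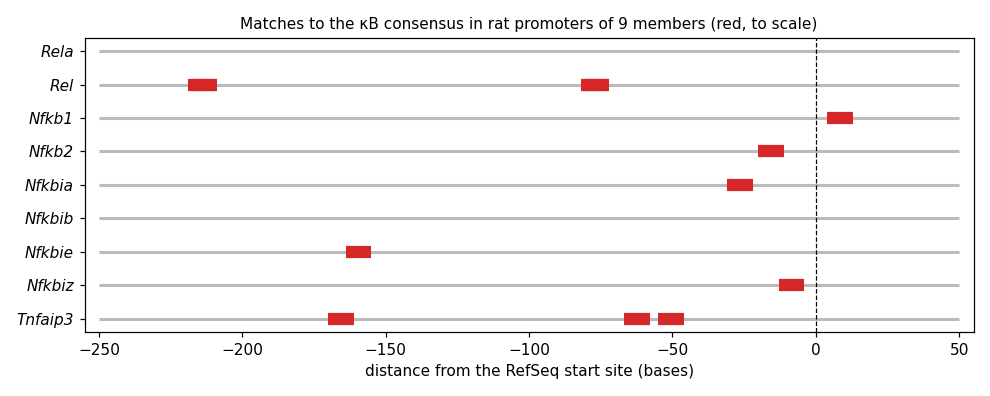
Position of each match to the κB consensus (red, drawn to scale) in the 300 bases of 9 members' rat promoters, as distance in bases from the RefSeq start site (dashed line). Rel and Tnfaip3 hold matches at more than one place, Nfkb1, Nfkb2, Nfkbia, Nfkbie and Nfkbiz at one, and Rela and Nfkbib at none.

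The libraries held 32765138 to 40427647 counts, and levels are given as CPM, the count scaled to a common library size. A count of 0 allows up to 3 counts, here 0.0742 to 0.0916 CPM, for counting error only. All 10 members passed the filter on low counts in the 3 comparisons. Con replicate 1 stood apart (mean distance to other libraries 76.6, where every other library had 59.7 to 66.0), and the members' values against the Con group are also given without it. Markers of NSCs, neurons, astrocytes and oligodendrocytes were all present. Of 10 Hox genes that mark spinal cord position, 3 had rows in the table, Hoxc6, Hoxc9 and Hoxc10, and none exceeded 2 counts in any library. The labelled spinal cord origin was thus not matched by these position markers.

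Markers of other cell types differed between the groups. The 12 markers of microglia and macrophages summed to 17.7 to 22.2 CPM in Con libraries, 11.9 to 14.5 in Exo libraries and 22.4 to 27.3 in pLV-Exo-Wnt5a libraries. Lyz2 made up most of this sum in pLV-Exo-Wnt5a replicates 2 and 3, and it rose against the Exo group in edgeR's test (log2FC = 1.21, Q = 0.0113). Of the 9 markers on that list that were tested, 8 were lower in Exo than in Con and 8 higher in pLV-Exo-Wnt5a than in Exo, the direction that most members took. Csf1r had log2FC values of -1.59 and 1.88 in these comparisons (edgeR Q = 0.265 and 0.0640), neither with overlap. The defining markers Ptprc, P2ry12 and Tmem119 stayed at 14 counts or fewer in every library. Gfap, the intermediate filament of astrocytes, was at 2262 to 3055 CPM in Con libraries, 2205 to 2278 in Exo libraries and 3970 to 4082 in pLV-Exo-Wnt5a libraries, and rose against the Exo group in edgeR's test (log2FC = 0.86, Q = 3.36e-05). The 8 astrocyte markers did not rise as a list, since 3 were above and 5 below the Exo group (median log2FC -0.16), although their sum (4129 to 4276 CPM in Exo libraries and 5779 to 6125 in pLV-Exo-Wnt5a libraries) followed Gfap. Of the 8 neuron markers, 7 were higher in the Exo group than in the Con group, 6 with an unadjusted p under 0.05 and 0 with Q under 0.05 in edgeR (median log2FC 0.37). In the pLV-Exo-Wnt5a group 3 of them were above and 5 below the Exo group (median log2FC -0.05), and 1, Dcx, a marker of young neurons, fell (log2FC = -0.60, edgeR Q = 0.0113). The oligodendrocyte markers Mbp and Mag were also lowest in the Exo libraries, with log2FC values of -0.44 and -0.67 against the Con group and of 0.57 and 0.71 for pLV-Exo-Wnt5a over Exo (edgeR Q of 0.149 or more), while 7 tested markers of that list had 4 higher and 3 lower in the latter comparison. Of 6 tested fibroblast and mural markers, 4 were higher and 2 lower there (median log2FC 0.06). Acta2 had a log2FC of 1.51 (edgeR Q = 0.102) and Col3a1 one of -0.55 (edgeR Q = 0.264). The part of these cell types in the results below was not tested, and in bulk RNA fewer cells of a type and less RNA per cell cannot be told apart.

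In the pLV-Exo-Wnt5a group, 4 of the 5 transcripts grouped as inhibitors, Nfkbiz among them, had a higher mean CPM than in the Exo group. So did 3 of the 5 subunit transcripts (Rela, Relb and Nfkb2). None passed the threshold after adjustment. Of the 10 members, 0 had Q under 0.05 in edgeR's quasi-likelihood test (Q is the Benjamini-Hochberg adjusted p over all 15132 genes tested), beside 0.436% of all genes. At an unadjusted p under 0.05 there were 5 members, Nfkbia, Nfkbiz, Relb, Nfkb2 and Rela. Without pLV-Exo-Wnt5a replicate 3, Nfkb2 and Rela no longer had one and Nfkbib did. All 5 were higher in the pLV-Exo-Wnt5a group, beside 5.07% of all genes that were higher and 12% in either direction, so that the members' share was the larger. The same 5 members did not overlap between the groups and were higher, and Nfkbib did not overlap and was lower, beside 7.5% of all genes higher and 16.4% in either direction. The median log2FC of the members was 0.27 (0.18 to 0.37 over 12 alternatives), and that of all genes 0.00. DESeq2, run as an alternative, called 2 of the 10, Nfkbia and Nfkbiz, beside 2.74% of all genes, and so did edgeR with no filter on low counts, beside 1.71%.

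**Figure D2:**
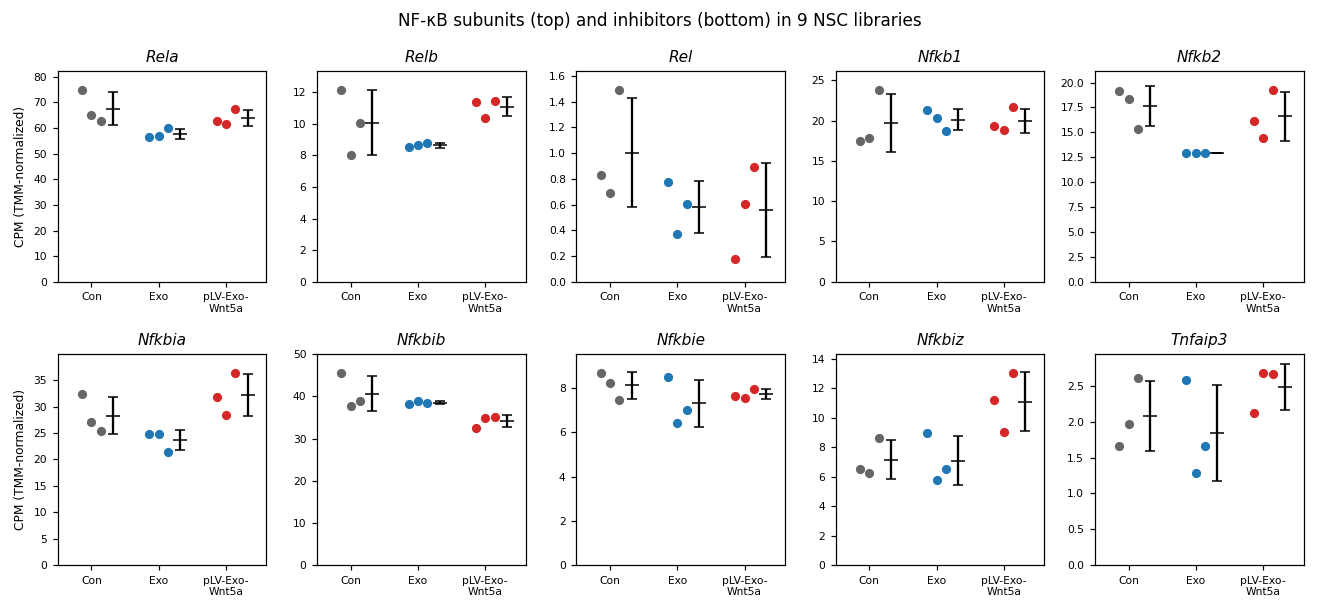
TMM-normalized CPM of each member (vertical axis from 0, one panel per gene) in the 3 libraries of the Con (grey), Exo (blue) and pLV-Exo-Wnt5a (red) groups, with the mean and SD as a black bar. Nfkbia, Nfkbiz, Relb, Nfkb2 and Rela have every pLV-Exo-Wnt5a library above every Exo library, and Nfkbib has every one below.

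Among the inhibitors, Nfkbia encodes IκBα, the inhibitor that is destroyed and remade most rapidly when the pathway is engaged. Its level was 32.3, 27.2 and 25.4 CPM in Con replicates 1, 2 and 3, then 24.9, 24.8 and 21.5 CPM in the Exo libraries, and 31.8, 28.4 and 36.3 CPM in the pLV-Exo-Wnt5a libraries. The Exo libraries were the lowest, below every library of both other groups, while the Con and pLV-Exo-Wnt5a libraries overlapped. Mean CPM was 28.32 ± 3.586 for Con, 23.73 ± 1.933 for Exo and 32.18 ± 3.999 for pLV-Exo-Wnt5a (SD, n = 3). The pLV-Exo-Wnt5a group was 1.37-fold above the Exo group (log2FC = 0.45, SE 0.108, 95% interval 0.21 to 0.69, edgeR unadjusted p = 0.00157, Q = 0.111). In DESeq2 the adjusted p was 0.00989, and Q ranged from 0.00989 to 0.334 over 12 alternatives. Against the Con group, the Exo group had a log2FC of -0.27 (interval -0.54 to 0.01, Q = 0.347 in edgeR), and of -0.16 without Con replicate 1. The pLV-Exo-Wnt5a and Con groups could not be separated (log2FC = 0.18, interval -0.12 to 0.47, edgeR Q = 0.724). Without Con replicate 1, the highest Con library, this log2FC was 0.29 (unadjusted p = 0.0287 and Q = 0.470 in edgeR).

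Nfkbiz encodes IκBζ, an atypical nuclear member of the IκB family that acts with NF-κB on a subset of its target genes. It is grouped with the inhibitors here by family only. It was measured at 6.54, 6.22 and 8.64 CPM in the Con libraries, at 8.97, 5.79 and 6.49 CPM in the Exo libraries, and at 11.2, 9.03 and 13.0 CPM in the pLV-Exo-Wnt5a libraries. Every pLV-Exo-Wnt5a library thus stood above all Con and Exo libraries, although replicate 2 was only just above Exo replicate 1. Its log2FC against the Exo group was 0.66 (SE 0.186, interval 0.25 to 1.07, edgeR unadjusted p = 0.00457, Q = 0.174; 1.58-fold). Against the Con group it was 0.63 (SE 0.187, interval 0.22 to 1.04, edgeR unadjusted p = 0.00573, Q = 0.434; 1.55-fold), and 0.58 without Con replicate 1. For the comparison with the Exo group, Q ranged from 0.0281 to 0.492 over 12 alternatives, and the adjusted p of DESeq2 was 0.0345. The Exo and Con groups overlapped, with a log2FC of -0.02 and an interval of -0.47 to 0.44 (-0.07 without Con replicate 1).

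Nfkbib, which encodes the inhibitor IκBβ, went the other way. Its level was 45.5, 37.7 and 38.8 CPM in the Con libraries, 38.1, 38.9 and 38.5 CPM in the Exo libraries and 32.4, 34.8 and 35.2 CPM in the pLV-Exo-Wnt5a libraries. The pLV-Exo-Wnt5a libraries were below those of both other groups. The log2FC was -0.16 against the Exo group (interval -0.32 to 0.00, edgeR unadjusted p = 0.0539, Q = 0.428) and -0.26 against the Con group (interval -0.51 to -0.01, edgeR unadjusted p = 0.0397, Q = 0.587). Without Con replicate 1, which had the highest level, the latter was -0.16, with an unadjusted p of 0.0784 in edgeR. The Exo group had a log2FC of -0.09 against the Con group (interval -0.32 to 0.14), and of 0.00 without that library.

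The other 2 inhibitors showed no separation of groups. Tnfaip3, which encodes the ubiquitin-editing enzyme A20, ran from 1.29 to 2.68 CPM over the 9 libraries. Its log2FC in the pLV-Exo-Wnt5a group against the Exo group, 0.45, was as high as that of Nfkbia, but its interval of -0.18 to 1.08 was wider, and Exo replicate 1, at 2.58 CPM, lay among the pLV-Exo-Wnt5a libraries. Without Exo replicate 1 this value was 0.76 (unadjusted p = 0.0224 in edgeR), and without Exo replicate 2 it was 0.24. Its log2FC against the Con group was -0.18 in the Exo group and 0.25 in the pLV-Exo-Wnt5a group, or -0.32 and 0.12 without Con replicate 1. Nfkbie, which encodes IκBε, ran from 6.41 to 8.67 CPM, and its intervals in the 3 comparisons together spanned -0.52 to 0.41 on the log2 scale. Without Con replicate 1, its log2FC against the Con group was -0.11 in the Exo group and -0.02 in the pLV-Exo-Wnt5a group.

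Among the subunits, Nfkb2 encodes the precursor of p52, the subunit processed in the non-canonical branch of the pathway. It stood at 19.1, 18.4 and 15.3 CPM in the Con libraries, at 12.95, 12.95 and 12.94 CPM in the Exo libraries, and at 16.2, 14.4 and 19.3 CPM in the pLV-Exo-Wnt5a libraries. All Exo libraries were below those of both other groups. They lay closer to each other (SD 0.00793 CPM, from 501 to 523 counts) than the Con (SD 2.00) and pLV-Exo-Wnt5a (SD 2.47) libraries. Counting error at such counts is wider than the SD of the Exo libraries, so their closeness is not read as a trait of the group. The Exo group had a log2FC of -0.45 against the Con group (SE 0.130, interval -0.74 to -0.17, edgeR unadjusted p = 0.0056, Q = 0.265), and of -0.39 without Con replicate 1. The pLV-Exo-Wnt5a group had a log2FC of 0.37 against the Exo group (SE 0.123, interval 0.10 to 0.64, edgeR unadjusted p = 0.0115, Q = 0.248). Without pLV-Exo-Wnt5a replicate 3, its highest library there, this was 0.24, with an unadjusted p of 0.0616 in edgeR. The pLV-Exo-Wnt5a and Con groups differed by -0.09, with an interval of -0.42 to 0.24, and by -0.02 without Con replicate 1.

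Relb, whose protein pairs mainly with p52 in that branch, was at 12.1, 8.01 and 10.1 CPM in the Con libraries, 8.50, 8.64 and 8.79 CPM in the Exo libraries and 11.4, 10.4 and 11.5 CPM in the pLV-Exo-Wnt5a libraries. The Con libraries spread over the range of both other groups, which did not overlap each other. The log2FC against the Exo group was 0.37 in the pLV-Exo-Wnt5a group (SE 0.114, interval 0.12 to 0.62, edgeR unadjusted p = 0.00785, Q = 0.214). Against the Con group, the Exo group had a log2FC of -0.23 and the pLV-Exo-Wnt5a group one of 0.13, both with intervals that included 0. Single Con libraries moved these values, to -0.07 and 0.30 without Con replicate 1 and to -0.37 and -0.01 without Con replicate 2.

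Rela encodes p65, the main transactivating subunit of the canonical branch and a protein that the study also measured. It was at 74.8, 64.9 and 62.7 CPM in the Con libraries, 56.3, 56.7 and 59.9 CPM in the Exo libraries and 62.8, 61.6 and 67.6 CPM in the pLV-Exo-Wnt5a libraries. The Exo libraries were again the lowest, with no overlap, and the step was small. The Exo group had a log2FC of -0.24 against the Con group (SE 0.0957, interval -0.45 to -0.02, edgeR unadjusted p = 0.0326, Q = 0.302), which was -0.15 without Con replicate 1 (unadjusted p = 0.0514 in edgeR). The pLV-Exo-Wnt5a group had a log2FC of 0.16 against the Exo group, a 1.12-fold difference (SE 0.0685, interval 0.01 to 0.31, edgeR unadjusted p = 0.037, Q = 0.377). When Exo replicate 1 or 2, or pLV-Exo-Wnt5a replicate 1 or 3, was left out, that unadjusted p ran from 0.0546 to 0.146 in edgeR. Against the Con group it differed by -0.09, with an interval of -0.31 to 0.14, and by 0.00 without Con replicate 1.

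Nfkb1, which encodes the precursor of p50, the usual partner of p65, ran from 17.5 to 23.8 CPM and averaged 19.7 ± 3.56 CPM for Con, 20.1 ± 1.31 for Exo and 20.0 ± 1.49 for pLV-Exo-Wnt5a (SD, n = 3). Its log2FC of 0.00 for pLV-Exo-Wnt5a against Exo had an interval of -0.21 to 0.22. Against the Con group its log2FC was 0.02 in the Exo group and 0.01 in the pLV-Exo-Wnt5a group. Without Con replicate 1 both values were -0.06. Rel, which encodes c-Rel, a subunit best known from lymphoid cells, had 7 to 49 counts in each library, or 0.177 to 1.49 CPM. The pLV-Exo-Wnt5a libraries alone ran from 7 to 37 counts. Its intervals were wider than those of the other members, reaching from -1.29 to 1.20 in the pLV-Exo-Wnt5a and Exo comparison. Its log2FC against the Con group was -0.78 in the Exo group and -0.84 in the pLV-Exo-Wnt5a group, with 0 inside every interval. These values were -0.90 and -0.95 without Con replicate 1. Over all single libraries left out, they ran from -1.03 to -0.40 and from -1.37 to -0.42.

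The comparison of the Exo group with the Con group sets cultures with BMSC-Exos beside cultures in medium alone. The log2FC was below 0 for 9 of the 10 members, with a median of -0.21 (-0.13 without Con replicate 1) against 0.00 for all genes. Of the members, 0 had Q under 0.05 in edgeR or in DESeq2, beside 0.00664% and 1.64% of all genes. Nfkb2 and Rela, both lower, had an unadjusted p under 0.05 in edgeR, beside 6.01% of all genes that were lower and 14.9% in either direction. The members' share lay above the former and near the latter. These 2 and Nfkbia did not overlap between groups and were lower, beside 12.4% of all genes lower and 23.3% in either direction. The pLV-Exo-Wnt5a group against the Con group had as many members higher as lower, 5 each, with a median of -0.03 (-0.01 without Con replicate 1). None of the members had Q under 0.05 in edgeR (0.0862% of all genes) or DESeq2 (0.478%), or in edgeR with no filter on low counts (0.372%). An unadjusted p under 0.05 in edgeR was reached by Nfkbiz, higher, and Nfkbib, lower, beside 4.2% of all genes higher and 8.35% in either direction, and the same 2 members did not overlap, beside 7.67% of all genes higher and 17.1% in either direction. These comparisons share libraries with each other, so that 1 low or high group enters 2 of them: for Nfkb2, for example, the same 3 Exo libraries give both the -0.45 against the Con group and the 0.37 in the other comparison.

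**Figure D3:**
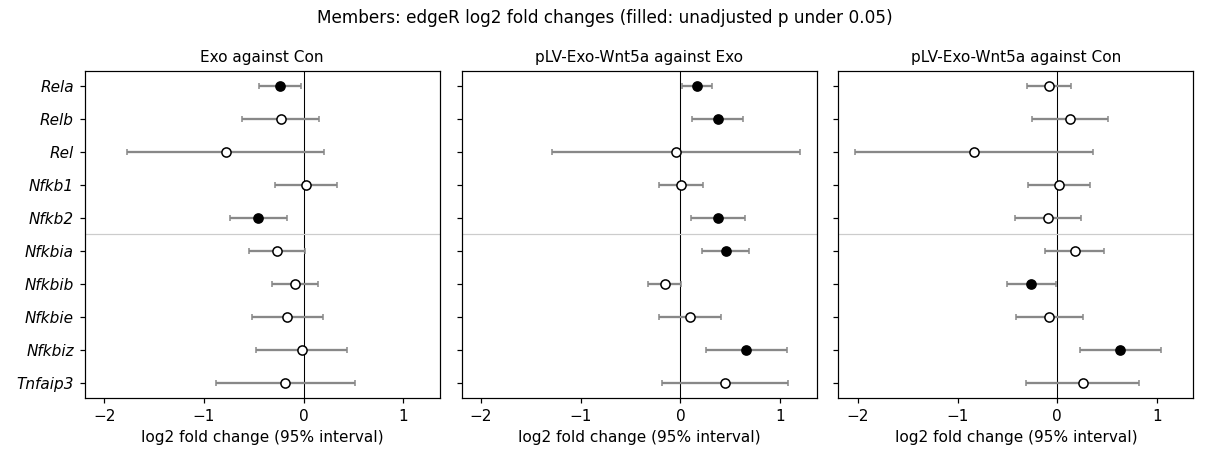
log2 fold change of each member (horizontal axis, edgeR) with its 95% interval in the 3 comparisons; filled points have an unadjusted p under 0.05 and the grey line divides subunits from inhibitors. In the comparison of the pLV-Exo-Wnt5a group with the Exo group, 5 points are filled and all lie right of 0, and none of the 30 has Q under 0.05.

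Ratios of members within a library do not depend on its scaling. Their absolute size depends on transcript length, so only their differences between libraries are read. The ratio of Nfkbia to Nfkbib was 0.656 to 0.720 in the Con libraries, 0.559 to 0.653 in the Exo libraries and 0.814 to 1.03 in the pLV-Exo-Wnt5a libraries. The 3 ranges did not overlap, with the pLV-Exo-Wnt5a group highest. The ratio of Nfkbia to Rela averaged 0.419 ± 0.0134 for Con, 0.413 ± 0.0467 for Exo and 0.502 ± 0.0388 for pLV-Exo-Wnt5a (SD, n = 3), with every pLV-Exo-Wnt5a library above every other library. The ratio of Nfkbib to Rela was 0.581 to 0.619 in the Con libraries, 0.642 to 0.687 in the Exo libraries and 0.517 to 0.566 in the pLV-Exo-Wnt5a libraries, again without overlap but in the opposite order of groups. The ratio of Nfkb2 to Nfkb1 was 0.608 to 0.692 in the Exo libraries and 0.762 to 0.889 in the pLV-Exo-Wnt5a libraries, and the Con libraries, at 0.645 to 1.09, overlapped both. These ratios were chosen after the members' values were seen and were not tested.

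Across the 9 libraries, which share the 3 groups and so are not independent, Rela and Nfkb2 had the highest correlation among the 45 pairs of members (Pearson r of log2 CPM = 0.90, Spearman rho = 0.92), followed by Nfkb2 with Nfkbia (r = 0.81, rho = 0.92). Nfkbib and Nfkbiz had the lowest (r = -0.67, rho = -0.68). Without Con replicate 1, these 3 values of r were 0.94, 0.78 and -0.72, and the order changed, with Relb and Nfkbiz next after Rela and Nfkb2 (r = 0.86) and Relb and Nfkbib lowest (r = -0.77, against -0.04 with that library). Among 15457 other genes, those most like Rela were Tst, a mitochondrial sulfurtransferase (r = 0.98), Plcb3, a phospholipase C (r = 0.98), and Zfyve1 (r = 0.98). Those most like Nfkbia were Zfp292 (r = 0.97), Parp3 (r = 0.95) and Vim, the intermediate filament vimentin (r = 0.95). Zfp292 was low, at 0.707 to 1.43 CPM over the 9 libraries. The genes named for Rela and Nfkbia were picked as the highest of 15457 values of r and were not tested. Vim averaged 1725 CPM for Con, 1340 for Exo and 2045 for pLV-Exo-Wnt5a.

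Other genes of the pathway, such as receptors, adaptors, kinases and further regulators, were taken from a list of 40, of which 38 were tested. None had Q under 0.05 in edgeR in any of the 3 comparisons. In the pLV-Exo-Wnt5a group against the Exo group, 9 of the 38 had an unadjusted p under 0.05, 5 higher and 4 lower, beside 12% of all genes in either direction. The list's median log2FC was 0.06 (0.03 to 0.08 over the alternatives, lowest without pLV-Exo-Wnt5a replicate 3), and DESeq2 called 4, Bcl3, Map3k14 and Tnfrsf1a, which were higher, and Tax1bp1, an adaptor of A20, which was lower (log2FC = -0.56, adjusted p = 0.0194), beside 2.74% of all genes. Bcl3 encodes an atypical nuclear IκB protein that binds p50 and p52 dimers. It was at 0.595, 0.347 and 0.505 CPM in the Exo libraries and at 1.82, 1.45 and 1.84 CPM in the pLV-Exo-Wnt5a libraries, with the Con libraries at 0.805, 0.565 and 0.244 CPM. The 3 pLV-Exo-Wnt5a libraries were above all others. Its log2FC against the Exo group was 1.83 (SE 0.342, interval 1.08 to 2.59, edgeR Q = 0.0512), and Q ranged from 0.000691 to 0.268 over the alternatives.

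Map3k14 encodes NIK, the kinase at the head of the non-canonical branch. It was at 10.6, 9.01 and 9.25 CPM in the Exo libraries and at 12.8, 13.5 and 18.3 CPM in the pLV-Exo-Wnt5a libraries (log2FC = 0.64, SE 0.152, edgeR Q = 0.111), and its log2FC against the Con group was 0.59 (edgeR Q = 0.435). Tnfrsf1a, the widely expressed TNF receptor, was at 55.4, 52.2 and 53.7 CPM in the Exo libraries and at 70.5, 60.3 and 70.1 CPM in the pLV-Exo-Wnt5a libraries (log2FC = 0.33, SE 0.0757, edgeR Q = 0.0983), while Con replicate 1, at 69.7 CPM, lay within the latter range. Among the genes whose unadjusted p was under 0.05 between the Exo and Con groups, 2 higher and 1 lower of 38 beside 14.9% of all genes, Ltbr, the lymphotoxin β receptor upstream of NIK, had a log2FC of -0.30 and Nkiras1, which encodes a small GTPase that binds IκB, one of 0.31 (edgeR Q = 0.302 and 0.330). Against the Con group, the pLV-Exo-Wnt5a group had 2 of 38, Bcl3 and Map3k14, both higher, beside 8.35% of all genes in either direction, and DESeq2 called 0 in either of these comparisons with the Con group.

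Of 33 genes known as NF-κB targets in various cell types, 32 had rows in the table and 19 passed the filter on low counts in all 3 comparisons. Il6, Il1b and Cxcl2 had 1 count at most in any library, and Tnf, Ccl2 and Ccl20 had 7 at most. Lcn2 and Lif were tested in the comparisons of the pLV-Exo-Wnt5a group alone, where they are high, and are left out of the counts that follow. In the pLV-Exo-Wnt5a group against the Exo group, 15 of the 19 were higher and 4 lower, with a median log2FC of 0.38. In edgeR 0 had Q under 0.05, 9 had an unadjusted p under 0.05, all higher, beside 5.07% of all genes, and 8 did not overlap, all higher, beside 7.5% of all genes. DESeq2 called 7 of them, C3, Csf1, Cxcl10, Icam1, Ier3, Junb and Vcam1, beside 2.74% of all genes. The pLV-Exo-Wnt5a group against the Con group also had 15 higher and 4 lower, with a median of 0.32. Of these, 0 had Q under 0.05 in edgeR, 8 had an unadjusted p under 0.05, all higher, beside 4.2% of all genes, and 6 did not overlap, all higher, beside 7.67%. DESeq2 called 1, Cd44, beside 0.478% of all genes. Between the Exo and Con groups, 14 of the 19 were lower, with a median of -0.11 that was -0.01 without Con replicate 1 and -0.05 without Exo replicate 3. None had Q under 0.05 in edgeR or DESeq2, and 1, Sod2, a mitochondrial superoxide dismutase, had an unadjusted p under 0.05 in edgeR (log2FC = 0.18, Q = 0.326), beside 14.9% of all genes.

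Lcn2, which encodes the secreted protein lipocalin 2, had 3, 1 and 0 counts in the Con libraries, 5, 0 and 0 in the Exo libraries and 21, 54 and 32 in the pLV-Exo-Wnt5a libraries. It passed the filter through the last group alone, so these counts are given as a description, with no fold change or test. The complement gene C3 had 2, 6 and 12 counts in the Exo libraries and 28, 38 and 46 in the pLV-Exo-Wnt5a libraries, with 9, 11 and 12 in the Con libraries (log2FC against Exo = 2.49, SE 0.563, edgeR Q = 0.0901). Csf1, the growth factor of macrophages and microglia, was at 36.5, 30.8 and 32.2 CPM in the Exo libraries and at 43.7, 39.8 and 44.6 CPM in the pLV-Exo-Wnt5a libraries (log2FC = 0.38, SE 0.0848, edgeR Q = 0.0888), and Con replicate 1, at 40.4 CPM, lay within the latter range. The adhesion receptor Cd44 was at 12.4, 11.6 and 15.8 CPM in the Con libraries and at 24.8, 17.3 and 31.9 CPM in the pLV-Exo-Wnt5a libraries (log2FC = 0.89, SE 0.203, edgeR Q = 0.263). The Exo libraries, at 18.3, 9.73 and 13.0 CPM, overlapped the latter. Lif, which encodes a cytokine of the interleukin-6 family and passed the filter through the pLV-Exo-Wnt5a group alone, had 4, 1 and 6 counts in the Con libraries, 7, 12 and 24 in the Exo libraries and 38, 22 and 22 in the pLV-Exo-Wnt5a libraries. In Lcn2 and C3 the pLV-Exo-Wnt5a libraries lay above all others, in Csf1 above the Exo libraries, and in Cd44 and Lif above the Con libraries. Several of these genes, C3, Lcn2 and Cd44 among them, are also made by reactive astrocytes, whose marker Gfap rose in the same libraries, and the part of astrocytes in these values was not tested.

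**Figure D4:**
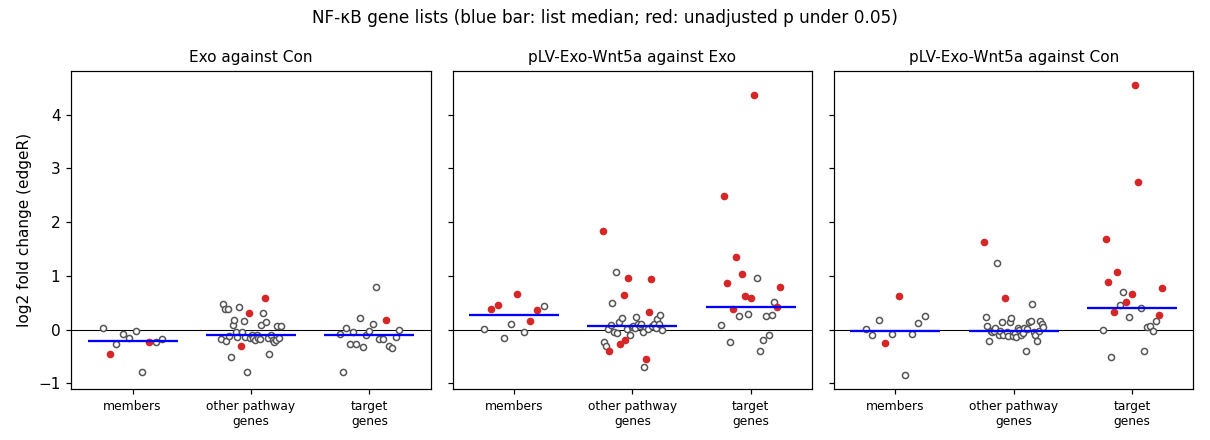
log2 fold change (vertical axis, edgeR) of each tested member, other pathway gene and target gene in the 3 comparisons; red points have an unadjusted p under 0.05 and the blue bar is the list's median. The target genes of the 2 comparisons of the pLV-Exo-Wnt5a group include Lcn2 and Lif, which the counts in the text leave out, and no point has Q under 0.05.

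The κB consensus was found in 11 of the 25 target genes (44.0%) and 5 of the 32 other pathway genes (15.6%) with a promoter in RefSeq. The same search gave 77.8% for the members and 7.51% for all promoters. A listed gene was counted once, with a match in any of its promoters, while the 7.51% counts each promoter. Target genes were listed because NF-κB is known to act on them, so that their share describes the list.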

How the data were processed

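The 9 NSC libraries comprised 3 each of Con, Exo and pLV-Exo-Wnt5a. The values the authors deposited are raw counts, whole numbers for each gene without normalization. The paper's methods name HISAT2, while the submitters' processing notes name Bowtie2, RSEM 1.3.1 and DESeq2 1.4.5, so the counts may be rounded RSEM estimates. The genome build, annotation and strand setting are not given in the sources used here. Gene names and NCBI numbers in the table are those of mouse, the cells are labelled as rat, and the promoters shown are from rat. Total counts were 32765138 to 40427647 per library.

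Genes kept by filterByExpr were normalized by TMM and tested in pairs of groups (6 libraries each) by edgeR 4.0.16 (quasi-likelihood test, R 4.3.3), with Benjamini-Hochberg adjustment (Q) over all genes tested. Calls had Q under 0.05. The SE was taken from the test statistic, and intervals are 95%. CPM was scaled by TMM over all 9 libraries, and correlations were taken on log2 CPM (prior count 2). The alternatives were DESeq2 1.42.0, RLE normalization, no filter on low counts, a minimum of 10 counts per library, a joint edgeR fit of the 9 libraries, a fold limit of 2 or 0.5, the replicate number as a block, and leaving out each library. Steps were tested on simulated data.

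All members were described. Other list genes were named if they had Q under 0.05, or were among up to 3 per list and comparison with the smallest unadjusted p under 0.05 whose groups do not overlap; genes that another tool called are named beside its count. For Rela and Nfkbia, the 3 genes with the highest Pearson r were named. The members, lists and rules were chosen with earlier results of these data known. Promoters came from RefSeq (GRCr8).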

Additional observations from a re-analysis of the deposited data

How the results depend on the processing

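Members at Q under 0.05 in the pLV-Exo-Wnt5a group against the Exo group numbered 0 in edgeR, 2 with no filter on low counts and 2 with DESeq2, and 0 without any single library. When 1 library was left out, members at an unadjusted p under 0.05 in edgeR numbered 1 to 3 between the Exo and Con groups. Without Con replicate 1 or 2 or Exo replicate 1 or 2 there was 1, Nfkb2. The number was 4 to 5 in the pLV-Exo-Wnt5a group against the Exo group. It was 1 to 2 between the pLV-Exo-Wnt5a and Con groups (1, Nfkbiz, without any 1 of the pLV-Exo-Wnt5a libraries). The share of all genes was not counted in these fits, so the numbers have no background beside them. Other pathway genes at Q under 0.05 against the Exo group were 4 with no filter, 1 with at least 10 counts in every library, 4 with DESeq2, and 0 to 1 when 1 library was left out (Tnfrsf1a without pLV-Exo-Wnt5a replicate 2), and against the Con group 1 with no filter. Target genes, here with Lcn2 and Lif, which passed the filter through the pLV-Exo-Wnt5a group alone, were 7 with no filter, 8 with DESeq2 and 0 to 1 when 1 library was left out (Lcn2 without Exo replicate 1) against the Exo group, and 2 with no filter and 2 with DESeq2 against the Con group. These counts describe the list only, since Lcn2 is among them. Over the 19 target genes tested in every comparison, a set chosen after seeing the data, 0 had Q under 0.05 in edgeR, 6 with no filter and 7 with DESeq2 against the Exo group, and 1 with each of these against the Con group.

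The replicate numbers did not pair the samples: correlations of same-numbered libraries ran from -0.201 to 0.0634, and 1 of the 9 libraries correlated best with its own number. With the replicate block, members at an unadjusted p under 0.05 were 1 between the Exo and Con groups. Between the pLV-Exo-Wnt5a and Con groups there was also 1. The number for the pLV-Exo-Wnt5a group against the Exo group is not given here, and no share of all genes stands beside these counts. They are therefore no check on the member count of that comparison. Target genes at Q under 0.05 with the block were 1 (Cd44) against the Exo group and 2 against the Con group, or 1 (Cd44) without Lcn2.

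Of 520 recomputed log2 fold changes of single genes, 473 kept their direction and side of the threshold, 26 newly passed it and 21 changed sign, all of genes whose intervals included 0. The sign of Nfkb1 in the pLV-Exo-Wnt5a group against the Exo group turned with RLE normalization (-0.0004) and with all 9 libraries (-0.0093). When 1 library was left out, the log2FC between the Exo and Con groups ran from -0.0556 to 0.1723 for Nfkb1, -0.1428 to 0.0016 for Nfkbib, -0.2136 to 0.1342 for Nfkbiz and -0.4925 to 0.0137 for Tnfaip3; against the Exo group from -0.5854 to 0.3818 for Rel and -0.0678 to 0.0433 for Nfkb1; and between the pLV-Exo-Wnt5a and Con groups from -0.1441 to 0.0037 for Rela, -0.0147 to 0.2972 for Relb, -0.0566 to 0.1615 for Nfkb1 and -0.2109 to 0.0074 for Nfkb2. The cause of these shifts was not tested. Il6, Il1b and Cxcl2, with at most 1 count in every library, were not measurable at this depth.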
